A study of Mus musculus with 8 samples.

Results

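The ion channel genes of mouse embryonic fibroblasts were compared between Cbx2-/- and wild-type cells. They were taken by gene symbol alone, without regard to their values: symbols starting with Kcn (potassium), Scn (sodium), Cacna, Cacnb or Cacng (calcium), Clcn (chloride), Trpc, Trpv or Trpm (transient receptor potential, TRP), Hcn (hyperpolarisation-activated) or Ano (anoctamin), and Trpa1. Of the 17441 genes in the authors' deposited table, 149 carried such a symbol. RNA sequencing covered 2 libraries of Cbx2-/- cells, which carry a targeted deletion of Cbx2, and 2 libraries of cells from wild-type littermates. All 4 libraries came from unsorted fibroblast cultures of embryonic day 18, used at passage 2. The labels do not say whether separate embryos gave the 2 libraries of each genotype, so p-values measure the spread between these libraries, which may be technical. ATAC-seq libraries of the same genotypes are not analysed here.

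Voltage-gated channels open when the membrane potential changes, and in nerve and muscle the sodium and calcium families carry the rising phase of the action potential while the potassium families end it. TRP channels admit cations in response to lipids, heat or stretch, and the anoctamins are calcium-activated chloride channels or lipid scramblases. Fibroblasts do not fire action potentials, but potassium and TRP channels set their membrane potential and calcium entry. Cbx2 is a Polycomb protein whose chromodomain lets repressive complex 1 bind methylated histone H3 and keep developmental genes silent, most of them with promoters rich in CpG dinucleotides. The question asked of the channel genes was whether those near silence in fibroblasts, many of them neuronal, rose without Cbx2.

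The authors' deposited table gave Cbx2 itself a value of 29.0 in Cbx2-/- cells and 347 in wild-type cells (log2 fold change -3.58). A deposited value is a normalised read signal with 1 value per genotype and no spread, and the 2 values of a gene are set by the deposited fold change, which is drawn toward 0 in genes with few reads. They are therefore not the mean reads of the libraries. Whole reads per library were recovered from the values for all 6362 genes with a mean value under 60, and for some genes with a mean up to 100. The reads given below are those of genes for which exactly 1 set of whole reads matched. The authors' values summed to 18910077 in Cbx2-/- cells and 19428299 in wild-type cells, and the size factors of the libraries were 1.03 and 1.03 in Cbx2-/- cells and 1.01 and 0.935 in wild-type cells. A gene was called where its deposited adjusted p, from the authors' DESeq2 comparison, was under 0.05.

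Potassium channels made up 76 of the 149 genes. Among them were 31 voltage-gated pore subunits, 14 inward rectifiers, 13 auxiliary and regulatory genes and 11 tandem-pore channels. A further 7 had Kcnma, Kcnn, Kcnt or Kcnu symbols, most of them channels gated by calcium or sodium. The rest were 10 sodium channel, 21 calcium channel, 9 chloride channel, 18 TRP, 4 Hcn and 9 anoctamin genes and 2 transcripts that make no channel subunit. These 2 are Kcnq1ot1, an imprinted long noncoding RNA, and Kcnmb4os2, an antisense transcript. The RefSeq annotation of GRCm38.p6 holds 183 genes with such symbols, of which 150 had a row. The one more is Scn2a, which the table lists under its older symbol, so that the symbol rule did not take it, and the others are not analysed here. The 149 genes lie on 20 chromosomes.

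**Figure D1:**
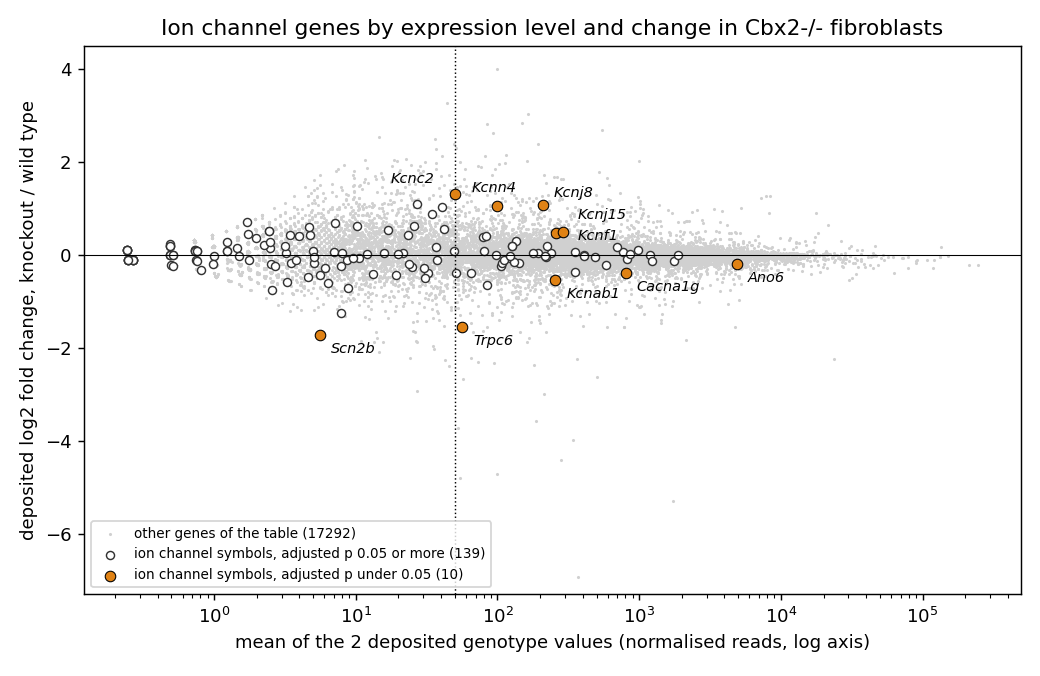
Each point is a gene, placed by the mean of its 2 deposited values (normalised reads, log axis) and its deposited log2 fold change, knockout over wild type. The 10 called ion channel genes are filled, the dotted line marks the mean of 50 under which a gene was taken as near silence, and Scn2b is the 1 called gene to its left.

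Over the whole table the ion channel genes changed in both directions and about as often as other genes. More of them were near silence (mean value under 50), 102 of 149 against 35.1% of all genes, and few such genes were called. Above that mean, larger shares of ion channel genes than of all genes were called, on the small counts given below. By the p-values of the authors' deposited table, 5 of 149 were called higher in Cbx2-/- cells (3.36%), against 3.48% of all 17441 genes. By the same p-values 5 were called lower (3.36%), against 4.3% of all genes. Calls in either direction came to 6.71% of ion channel genes and 7.78% of all genes. At an unadjusted p under 0.05 in the authors' deposited table, 8 were higher, against 6.74% of all genes, and 8 lower, against 7.87%. The median deposited log2 fold change was -0.0036 over the ion channel genes and 0.0036 over all genes. All 5 higher genes, Kcnj8, Kcnn4, Kcnc2, Kcnj15 and Kcnf1, were potassium channels. The 5 lower genes, Trpc6, Scn2b, Kcnab1, Cacna1g and Ano6, came from 5 different families.

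Under stricter call rules fewer of the 10 remained. With a 2-fold change required as well, 3 were higher (1.0% of all genes), which are Kcnj8, Kcnn4 and Kcnc2, and 2 lower (0.682% of all genes), which are Trpc6 and Scn2b. With a 10% coefficient of variation added to the spread of every gene, 3 were higher (1.35% of all genes) and 1 lower (1.09% of all genes). With p-values adjusted over the 13034 genes with a mean of 10 or more, 5 of 70 ion channel genes were higher (4.99% of those genes) and 4 lower (6.25% of those genes). The main calls were also counted among genes above a mean value of 50 alone. There 5 of 47 ion channel genes were called higher (10.6%), against 4.74% of 11315 genes, and 4 lower (8.51%), against 6.36%. A test on recovered reads with limma, open to 58 of the 149, called 4 higher, against 6.86% of the 3526 genes it tested, and 3 lower, against 3.12%.

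Among the 5, the rise of Kcnj8 was the largest relative to its implied standard error. Kcnj8 is the pore subunit of an ATP-sensitive inward rectifier found in vascular smooth muscle and pericytes (chromosome 6, 142564837 to 142571614, GRCm38.p6). In the authors' deposited table it had a value of 286 in Cbx2-/- cells and 134.8 in wild-type cells, a fold change of 2.12. The deposited log2 fold change was 1.09, with an implied standard error of 0.18 and an adjusted p of 1.78e-07. Abcc9, the sulphonylurea receptor that assembles with Kcnj8 and that was looked up after its values were seen, had 490.6 in Cbx2-/- cells and 252.4 in wild-type cells in the authors' deposited table (log2 fold change 0.96, adjusted p = 9.96e-10). Kcnj11, the other pore subunit of ATP-sensitive channels, had 1 read over the 4 libraries.

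Kcnn4, a calcium-activated channel of intermediate conductance known from lymphocytes and red cells, rose 2.08-fold (chromosome 7, 24369826 to 24385212). The authors' deposited table gave it 133.3 in Cbx2-/- cells and 64.2 in wild-type cells. Several sets of whole reads match its values, so none is given. The authors' deposited table gave a log2 fold change of 1.05, with an implied standard error of 0.27 and an adjusted p of 0.00170.

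Kcnc2, a fast delayed rectifier of fast-spiking neurons, had 72 and 81 reads in the Cbx2-/- libraries and 24 and 27 reads in the wild-type libraries. Both knockout libraries lay well above both wild-type libraries. The authors' deposited table gave a log2 fold change of 1.32 with an adjusted p of 0.0030. Its mean value of 50.2 stands just above the limit of 50 used for near silence, and is the lowest among the 5 genes called higher.

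Kcnj15, a further inward rectifier, and Kcnf1, an electrically silent subunit that modifies other voltage-gated channels, rose less. The authors' deposited table gave Kcnj15 338 in Cbx2-/- cells and 240.1 in wild-type cells (log2 fold change 0.49, implied standard error 0.16, adjusted p = 0.0316). Kcnf1 had 299.8 in Cbx2-/- cells and 215.4 in wild-type cells in the authors' deposited table (log2 fold change 0.48, implied standard error 0.17, adjusted p = 0.0498). With the 10% of added spread neither was called (adjusted p = 0.460 for Kcnj15 and 0.548 for Kcnf1).

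The 250 bases before an annotated start of 4 of the genes are shown here because they differ widely in CpG density, the sequence feature of most Polycomb target promoters. They are RefSeq sequences of GRCm38.p6, read 5′ to 3′ on the gene's strand, with each CpG dinucleotide in capitals. Kcnj8 and Kcnn4 had the largest rises above a mean of 60, Trpc6 had the largest fall among genes above near silence, and Kcnj4 is a near-silent inward rectifier described below. Kcnj8 is at chr6:142571615-142571864 on the minus strand, Kcnn4 at chr7:24370013-24370262 on the plus strand, Trpc6 at chr9:8543892-8544141 on the plus strand and Kcnj4 at chr15:79505242-79505491 on the minus strand.
Kcnj8: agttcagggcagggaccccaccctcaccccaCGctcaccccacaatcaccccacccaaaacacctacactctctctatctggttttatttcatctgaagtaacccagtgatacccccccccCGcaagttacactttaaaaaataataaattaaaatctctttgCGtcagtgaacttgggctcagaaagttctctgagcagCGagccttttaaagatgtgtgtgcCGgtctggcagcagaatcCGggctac
Kcnn4: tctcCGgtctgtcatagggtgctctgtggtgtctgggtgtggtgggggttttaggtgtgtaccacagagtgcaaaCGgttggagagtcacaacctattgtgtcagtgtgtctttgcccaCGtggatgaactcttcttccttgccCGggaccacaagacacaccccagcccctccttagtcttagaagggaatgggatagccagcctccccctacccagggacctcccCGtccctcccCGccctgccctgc
Trpc6: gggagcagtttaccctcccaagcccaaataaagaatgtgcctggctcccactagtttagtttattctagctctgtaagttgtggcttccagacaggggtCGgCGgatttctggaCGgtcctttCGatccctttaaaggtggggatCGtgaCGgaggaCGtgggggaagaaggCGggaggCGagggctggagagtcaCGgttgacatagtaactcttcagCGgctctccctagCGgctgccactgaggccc
Kcnj4: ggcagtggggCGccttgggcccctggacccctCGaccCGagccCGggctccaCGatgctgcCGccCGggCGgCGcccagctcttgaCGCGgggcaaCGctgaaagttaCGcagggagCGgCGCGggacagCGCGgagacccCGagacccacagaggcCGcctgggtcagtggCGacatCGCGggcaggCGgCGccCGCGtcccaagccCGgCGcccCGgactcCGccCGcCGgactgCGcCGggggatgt
The Kcnj8 and Kcnn4 stretches each hold 6 CpG dinucleotides, a number reached or passed by 50.4% of 32851 annotated mouse starts. The Trpc6 stretch holds 12, reached by 33.5%. The Kcnj4 stretch holds 35, reached by 2.97%. The Kcnn4 stretch lies inside the span given above for that gene, so the start it precedes is not the outermost one. These 4 genes were picked and do not stand for the others. Over 300 bases (250 before a start and 50 after), Kcnj4 had 41 CpG dinucleotides, against 15 in Ano5 and 8 in Kcna6. Both Ano5 and Kcna6 were near silence and called higher by limma, as was Kcnj4. The 4 starts of Kcnc2 had 3 to 6. Promoter sequences were matched for 75.2% of the 149 genes, under the 80% set for a comparison of base composition over the genes, which is therefore void.

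The steepest called fall above near silence was in Trpc6, a cation channel opened by diacylglycerol and known from smooth muscle and kidney podocytes. It had 19 and 34 reads in the Cbx2-/- libraries and 94 and 75 reads in the wild-type libraries, without overlap. The authors' deposited table gave it a log2 fold change of -1.55, with an implied standard error of 0.35 and an adjusted p of 1.98e-04. Trpc1, the canonical TRP channel with the highest level per kilobase, had a value of 107 in Cbx2-/- cells and 115 in wild-type cells in the authors' deposited table and was not called (adjusted p = 0.950).

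Scn2b, a beta subunit that is bonded to sodium channel pore subunits and alters their gating, had no read in both Cbx2-/- libraries and 16 and 6 reads in the wild-type libraries. The mean of the wild-type libraries was 7.68-fold above a floor of 3 reads over both Cbx2-/- libraries. This ratio leaves out the spread between the wild-type libraries, so it is no lower bound. The authors' deposited table gave a log2 fold change of -1.71 with an adjusted p of 0.0214. The call rests on 22 reads in all. Its neighbour Scn4b, another beta subunit, had 4 and 2 reads in the Cbx2-/- libraries and 1 and 1 in the wild-type libraries and was not called.

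The other 3 falls were smaller and in genes well expressed. Kcnab1, a cytoplasmic beta subunit of Shaker-type potassium channels, had 210 in Cbx2-/- cells and 303 in wild-type cells in the authors' deposited table (log2 fold change -0.53, implied standard error 0.17, adjusted p = 0.0285). Cacna1g, a low-voltage-activated T-type calcium channel pore, had 700 in Cbx2-/- cells and 911 in wild-type cells in the authors' deposited table (log2 fold change -0.38, implied standard error 0.097, adjusted p = 0.00215). Ano6, a calcium-activated lipid scramblase and ion channel, had 4578 in Cbx2-/- cells and 5255 in wild-type cells in the authors' deposited table (log2 fold change -0.20, implied standard error 0.049, adjusted p = 0.00116). With the 10% of added spread none of these 3 was called, nor was Scn2b (adjusted p = 0.0727).

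**Figure D2:**
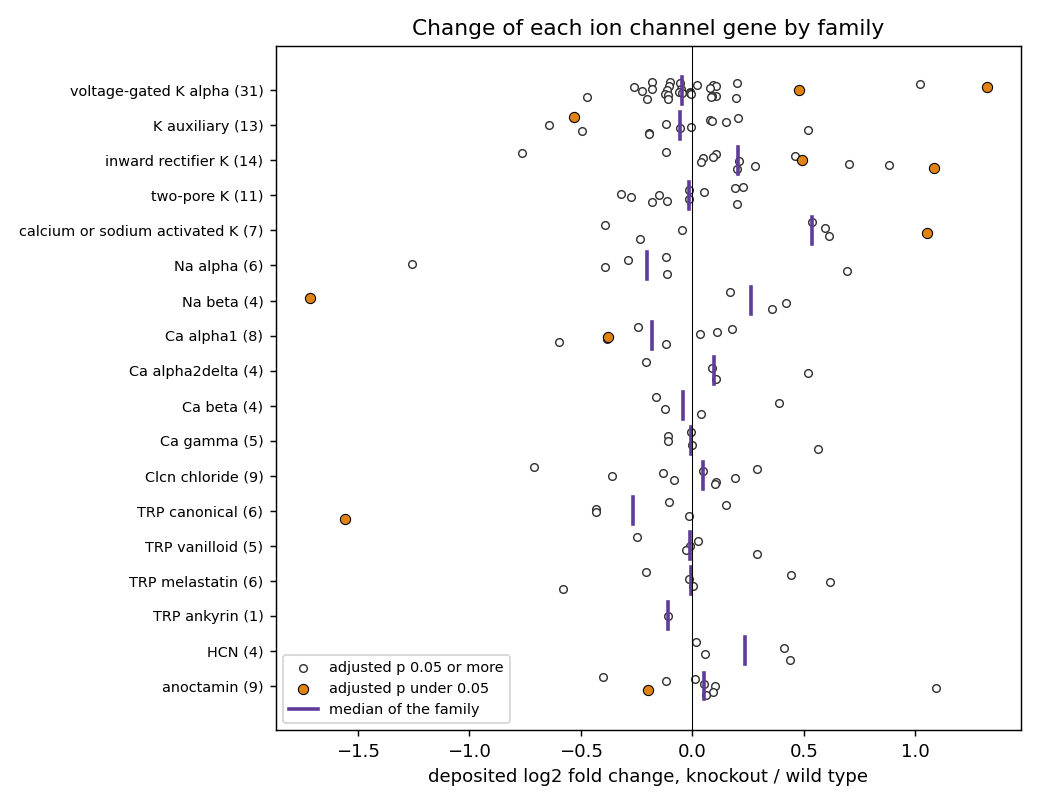
Each point is an ion channel gene, placed by its deposited log2 fold change, knockout over wild type, in rows by family with the number of genes in brackets. Filled points are called, and vertical bars are family medians. The medians lie between -0.27 and 0.54, and the called genes sit in 8 of the rows.

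Kcne4, a single-pass subunit that inhibits several potassium channels, missed the threshold. It had 65.4 in Cbx2-/- cells and 102 in wild-type cells in the authors' deposited table (log2 fold change -0.64, adjusted p = 0.199).

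Across the potassium channels, 5 of 76 were called higher and 1 of 76 lower in the authors' deposited table, against 3.48% higher and 4.3% lower of all genes, with a median log2 fold change of -0.0036. Of the 14 inward rectifiers 12 had a positive deposited log2 fold change, with a median of 0.21. Of these 14, 11 were near silence. The 7 genes with Kcnma, Kcnn, Kcnt or Kcnu symbols had a median of 0.54, and Kcnn4 among them was called. The 31 voltage-gated pore subunits had a median of -0.04, with Kcnc2 and Kcnf1 called. The ether-a-go-go channel Kcnh1, highest of them per kilobase, had 477 in Cbx2-/- cells and 492 in wild-type cells in the authors' deposited table (adjusted p = 0.968). None of the 11 tandem-pore leak channels was called by the authors' DESeq2 test, and none had an unadjusted p under 0.05. limma on recovered reads, which tested 3 of them, called 0 as well. Kcnk12, a tandem-pore subunit and the highest of them per kilobase, had 217 in Cbx2-/- cells and 219 in wild-type cells in the authors' deposited table.

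Among the 10 sodium channel genes 1 was called lower. For this family and those described next, the authors' DESeq2 test called 3.48% of all genes higher and 4.3% lower. limma called 6.86% and 3.12% of the genes it tested. Counts this low in families this small say little about a family. Scn7a, a sodium-sensing relative of the pore subunits, had 43 and 46 reads in the Cbx2-/- libraries and 52 and 61 reads in the wild-type libraries (deposited adjusted p = 0.819). Scn2a, outside the symbol rule as noted, had 69 and 75 reads in the Cbx2-/- libraries and 49 and 61 reads in the wild-type libraries (deposited adjusted p = 0.931). It is a main neuronal pore subunit.

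Of the 21 calcium channel genes 1 was called lower and 0 higher in the authors' DESeq2 comparison, against 4.3% and 3.48% of all genes. No calcium channel gene had an unadjusted p under 0.05 with a positive fold change, and limma, which tested 7 of them, called 0 in either direction. The L-type pore Cacna1c had 1024 in Cbx2-/- cells and 949 in wild-type cells in the authors' deposited table (adjusted p = 0.788). Its auxiliary subunits Cacna2d1, which promotes surface expression of the pore, and Cacnb3, a cytoplasmic beta subunit, stood at -0.21 and -0.12 (log2 fold changes of the authors' deposited table). Neither was called, with adjusted p of 0.400 and 0.485. Cacng7, a gamma subunit that also accompanies glutamate receptors, had 406 in Cbx2-/- cells and 406 in wild-type cells in the authors' deposited table.

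None of the 9 chloride channel genes was called by the authors' DESeq2 test. At an unadjusted p under 0.05, 0 were higher and 1 lower, against 6.74% and 7.87% of all genes. limma on recovered reads could test 1 of them and called 0. That 1 lower gene was Clcn5, an endosomal chloride and proton exchanger, with 307 in Cbx2-/- cells and 395 in wild-type cells in the authors' deposited table (adjusted p = 0.141). Clcn4, a related exchanger and the highest of the 9 per kilobase, had 1176 in Cbx2-/- cells and 1287 in wild-type cells in the authors' deposited table (adjusted p = 0.552).

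In the 18 TRP genes Trpc6 was the single call, against 4.3% of all genes called lower and 3.48% higher. The channel kinase Trpm7 had 1885 in Cbx2-/- cells and 1879 in wild-type cells in the authors' deposited table, with a log2 fold change of 0.00 and an implied standard error of 0.067. Trpv2, a cation channel of the vanilloid group, had 864 in Cbx2-/- cells and 848 in wild-type cells in the authors' deposited table (adjusted p = 0.973). The irritant receptor Trpa1 of sensory neurons had 0 and 0 reads in the Cbx2-/- libraries and 1 and 0 in the wild-type libraries.

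None of the 4 Hcn pacemaker channels was called by the authors' DESeq2 test, and none had an unadjusted p under 0.05. limma, which tested 3 of them, called 0 too. Hcn2 had 88 and 108 reads in the Cbx2-/- libraries and 60 and 75 reads in the wild-type libraries (deposited adjusted p = 0.648).

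Per kilobase of gene length, the only scale on which levels are set side by side between genes here, the authors' values placed Ano6 first, at 806 in Cbx2-/- cells and 926 in wild-type cells. Cacnb3 followed with 631 per kilobase in Cbx2-/- cells and 686 in wild-type cells. Cacng7 had 490 per kilobase in Cbx2-/- cells and 491 in wild-type cells. Ano10, an anoctamin of intracellular membranes, had 453 per kilobase in Cbx2-/- cells and 449 in wild-type cells. Of the 5 genes called higher, Kcnj8 had the highest level per kilobase, 131 in Cbx2-/- cells and 61.6 in wild-type cells. The values carry no spread, so no test of the order of neighbours was possible.

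**Figure D3:**
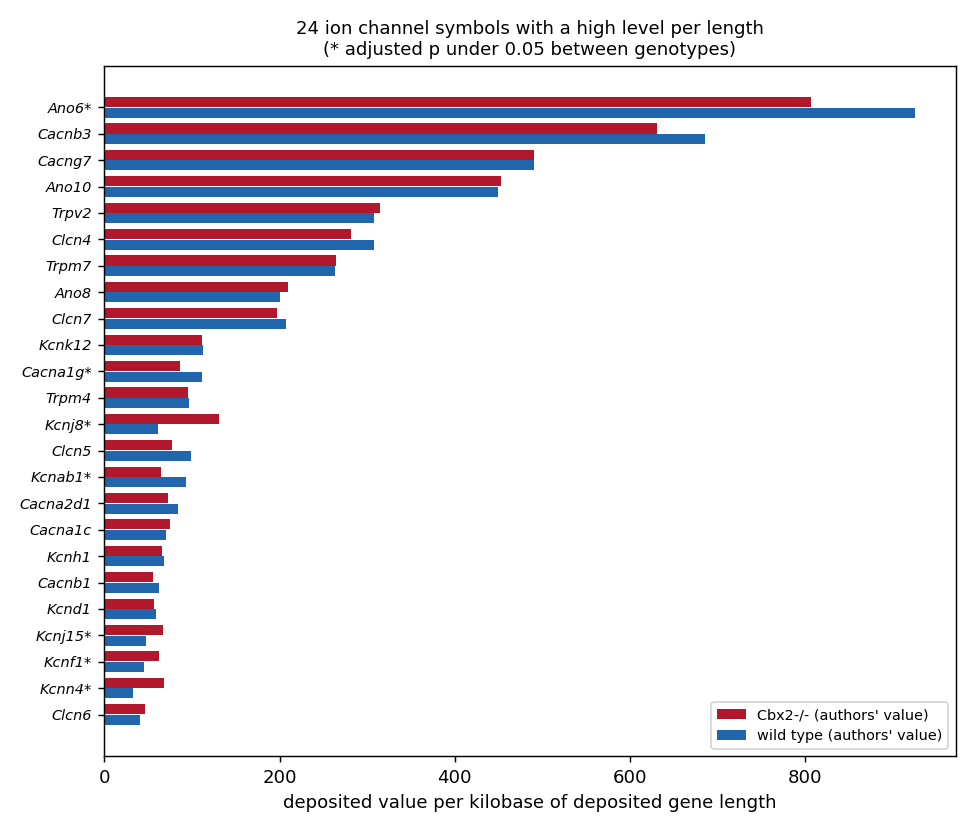
Bars give the authors' value per kilobase of deposited gene length in Cbx2-/- cells (upper bar) and wild-type cells (lower bar) for 24 ion channel genes with high means on that scale. An asterisk marks a called gene. Ano6 leads at 806 and 926.

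Near silence was taken as a mean deposited value under 50, which held for 102 of the 149 ion channel genes and for 35.1% of all genes. No near-silent ion channel gene was called higher without Cbx2. By the p-values of the authors' deposited table, 0 of the 102 were called higher, against 1.16% of all 6126 near-silent genes. Scn2b was the 1 gene of the 102 called lower (0.98%), against 0.49% of all near-silent genes. At an unadjusted p under 0.05 in the authors' deposited table, 3 of the 102 were higher, against 3.05% of all near-silent genes, and 2 lower, against 1.35%.

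Counted in reads, 51 of the 102 near-silent ion channel genes had more scaled reads in Cbx2-/- cells, against 55.8% of all near-silent genes. The median log2 ratio of scaled reads, with 0.5 added to each mean, was 0.0009 over the ion channel genes, with quartiles at -0.58 and 0.85. Over all near-silent genes the median was 0.17. Both Cbx2-/- libraries lay above both wild-type libraries in 21 of the 102 (20.6%), against 22.1% of all near-silent genes. Both lay below in 19 of them (18.6%), against 16.3%. The summed scaled reads of the 102 genes were 803 and 852 in the Cbx2-/- libraries and 760 and 754 in the wild-type libraries. Over all near-silent genes the sums also stood higher in knockout, at 57515 and 57115 in the Cbx2-/- libraries and 51490 and 51238 in the wild-type libraries.

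**Figure D4:**
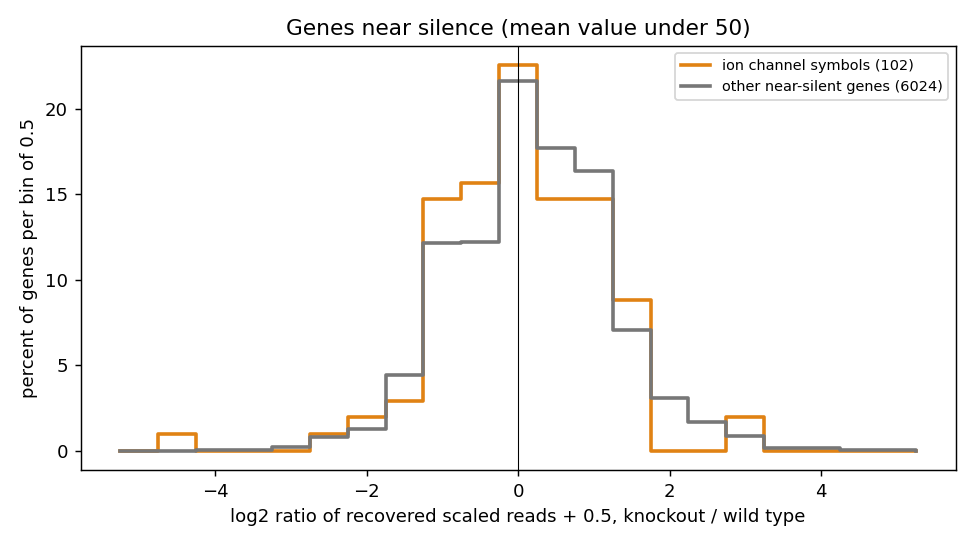
The histogram gives the percent of near-silent genes in each bin of the log2 ratio of scaled reads plus 0.5, knockout over wild type, for the 102 ion channel genes and for the other 6024 near-silent genes. The ion channel genes have their median at 0.0009, against 0.17 for all near-silent genes.

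Most of these genes had few reads, which limits what could be called. Of the 102, 15 had 1 read over the 4 libraries, 35 had at most 3, and the median was 10. Among all genes of the table, 0 of 3668 with a mean value up to 5 were called, and 65 ion channel genes lie in that range. Between 20 and 50 the smallest called deposited log2 fold change was 1.01 in size, with 15 ion channel genes in that range. A rise of such a gene was thus not detectable at this depth where it was small, and for genes with means up to 5 no change of any size passed.

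Of the 102, 55 had 10 or more reads and could be tested with limma on the recovered reads, a test added after the data were seen. It called 3 of them higher, against 6.29% of the 3290 near-silent genes it tested, and 2 lower, against 2.71%. Kcna6, a Shaker-type channel of axons, had 44 and 73 reads in the Cbx2-/- libraries and 25 and 23 in the wild-type libraries (limma adjusted p = 0.0112, deposited adjusted p = 0.0823). Ano5, a lipid scramblase of muscle, had 37 and 43 reads in the Cbx2-/- libraries and 11 and 18 in the wild-type libraries (limma adjusted p = 0.0128, deposited adjusted p = 0.117). Kcnj4, a strong inward rectifier of brain and heart, had 51 and 45 reads in the Cbx2-/- libraries and 24 and 20 in the wild-type libraries (limma adjusted p = 0.0160, deposited adjusted p = 0.205). In all 3 both knockout libraries stood above both wild-type libraries, as in 31.7% of all near-silent genes with 10 or more reads. The 3 were called on these same reads, so this adds no support.

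The 2 genes that limma called lower were sodium channel genes. Scn2b has been described, with a limma adjusted p of 0.0223. Scn3a, a pore subunit of the embryonic brain, had 1 and 4 reads in the Cbx2-/- libraries and 15 and 11 reads in the wild-type libraries (limma adjusted p = 0.0191, deposited adjusted p = 0.182). With 3 libraries in place of 4, the lone library of a genotype is assumed to vary like the others. Each near-silent gene that limma had called kept its direction in these runs, but most were no longer called. Far fewer of all genes were called in these runs too, as given at the end. Calls lost in these runs therefore say little about these genes in particular.

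**Figure D5:**
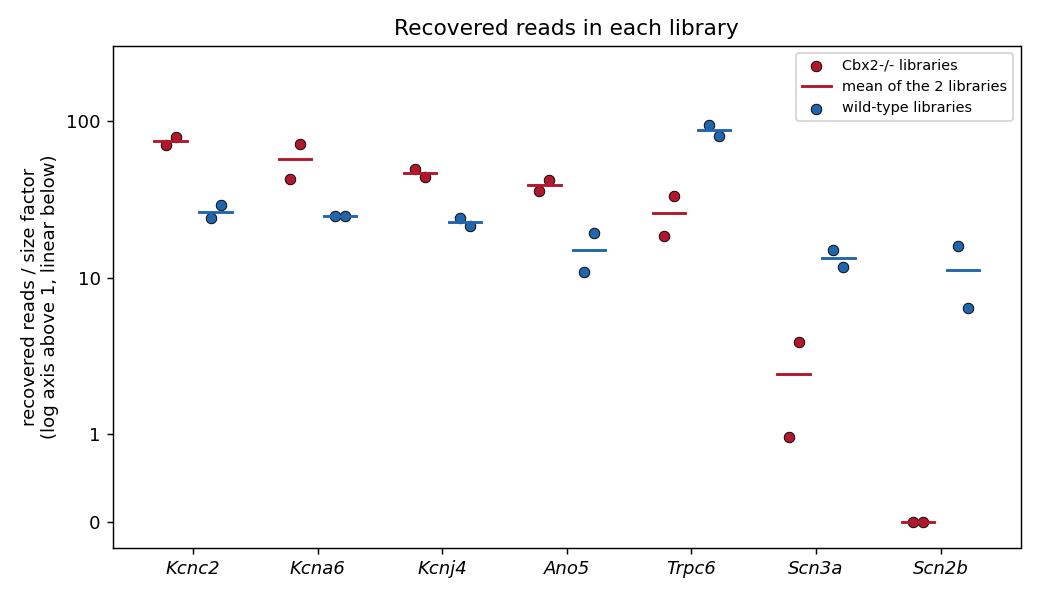
Points are recovered reads divided by the size factor in each Cbx2-/- library (left of each pair) and wild-type library (right), with bars at the mean of the 2 libraries. The axis is logarithmic above 1 and linear below. The 7 genes are those that limma called on these same reads, 4 higher in Cbx2-/- cells and 3 lower. That their groups do not overlap therefore adds no support.

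By size of the read ratio among near-silent genes with 10 or more reads, the 5 largest on the higher side were Kcnip4, Cacna2d3, Ano5, Kcnn2 and Scn8a. Kcnip4, a calcium-binding partner of A-type potassium channels, had 4 and 4 reads in the Cbx2-/- libraries and 1 and 1 in the wild-type libraries. Scn8a, a pore subunit of nodes of Ranvier, had 9 and 12 reads in the Cbx2-/- libraries and 4 and 4 in the wild-type libraries. Neither was called by the deposited test or by limma. Cacna2d3, an auxiliary calcium channel subunit, had 5 and 3 reads in the Cbx2-/- libraries and 1 and 1 in the wild-type libraries, and Kcnn2, a small-conductance calcium-activated channel, had 5 and 9 against 3 and 2.

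On the lower side the 5 were Scn2b, Kcnj10, Scn3a, Trpm8 and Clcn1. Kcnj10, an inward rectifier of astrocytes, had 1 and 0 reads in the Cbx2-/- libraries and 5 and 4 in the wild-type libraries. The cold receptor Trpm8 had 1 and 2 reads in the Cbx2-/- libraries and 8 and 2 in the wild-type libraries. Clcn1, the skeletal muscle chloride channel, had 4 and 7 reads in the Cbx2-/- libraries and 12 and 12 in the wild-type libraries. It overlaps Fam131b, which was called lower (deposited log2 fold change -0.41, adjusted p = 0.0157), and since no source used here states stranded counting, reads of the pair cannot be told apart.

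A grouping by neural terms was added after the data were seen. Of the 102 near-silent ion channel genes 35 carried a neuron, synapse, axon or dendrite term in the authors' deposited table. Of these, 19 had more scaled reads in Cbx2-/- cells, and the median log2 ratio was 0.03. Both Cbx2-/- libraries lay above both wild-type libraries in 8 of the 35 (22.9%), against 25.4% of 445 near-silent genes with such a term. Both lay below in 2 (5.71%), against 18.4%. The authors' DESeq2 test called 0 of the 35, against 1.35% higher and 0.899% lower of the 445. At an unadjusted p under 0.05, 1 was higher and 0 lower, against 2.7% and 1.35% of the 445. limma called 1 of 20 tested higher and 0 lower, against 4.87% and 2.25% of the 267 it tested with such a term.

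Some ion channel genes lie within 300 kb of another. The row of 3 Shaker-type genes Kcna5, Kcna1 and Kcna6 on chromosome 6 had deposited log2 fold changes of 0.20, -0.10 and 1.02. Scn2b and Scn4b on chromosome 9 had -1.71 and 0.36 in the authors' deposited table. Kcnj6 and Kcnj15 on chromosome 16 had 0.28 and 0.49 in the authors' deposited table, of which Kcnj15 was called. Kcnq1ot1 had 364 in Cbx2-/- cells and 345 in wild-type cells in the authors' deposited table and was not called (adjusted p = 0.931), and its antisense partner Kcnq1 had 1 read.

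Other membrane channels and partners of calcium entry, a list of 55 genes of which 54 had a row, included 5 called higher and 1 lower in the authors' deposited table, with a median log2 fold change of 0.08. Of all genes 3.48% were called higher and 4.3% lower. The higher ones were the connexins Gja1, Gja4 and Gjb2, which form gap junctions, the store-operated calcium channel Orai2 and the intracellular chloride channel protein Clic4. Gja4, an endothelial connexin, had 110 and 113 reads in the Cbx2-/- libraries and 32 and 33 reads in the wild-type libraries (deposited adjusted p = 1.55e-05). Gjb2 had 5062 in Cbx2-/- cells and 2630 in wild-type cells in the authors' deposited table (log2 fold change 0.94, adjusted p = 1.87e-69). Pkd2, the polycystin-2 channel of the TRP superfamily that the symbol rule does not take, had 2108 in Cbx2-/- cells and 3449 in wild-type cells in the authors' deposited table (log2 fold change -0.71, adjusted p = 8.4e-28). Of 51 ligand-gated neurotransmitter receptor genes 32 had a row and 0 were called by the authors' DESeq2 test, with 0 higher and 1 lower at an unadjusted p under 0.05. Of the 32, 28 were near silence, where few genes were called (1.16% of all near-silent genes higher and 0.49% lower). The count of 0 therefore says little about these receptors. limma called 0 higher and 1 lower of 17 tested, against 6.86% and 3.12% of all genes it tested.

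In bulk RNA, fewer cells of a type and less RNA per cell cannot be told apart. Of 16 neuronal marker genes with a row, the neurofilament gene Nefm was called higher and the microtubule gene Map2 lower, and their summed values in the authors' deposited table were 1328 in Cbx2-/- cells and 1365 in wild-type cells. Near silence, 8 of 11 of these neuronal genes had more scaled reads in Cbx2-/- cells, with a median log2 read ratio of 0.98, and limma called 1 of 8 tested higher. Over all near-silent genes the median was 0.17, and of the 11 neuronal genes Nefm was the 1 called by the authors' DESeq2 test. The early neuronal marker Dcx had 1 read over all libraries. Of 11 Schwann cell and glial genes 1 was called lower and 0 higher (2 higher at an unadjusted p under 0.05), with summed values of 1139 in Cbx2-/- cells and 1136 in wild-type cells in the authors' deposited table. Most of both sums came from Cnp and S100b, of which S100b was the gene called lower. The median log2 fold change of the glial list was 0.57, and limma called 2 of its 7 tested genes higher. All 7 near-silent glial genes had more scaled reads in Cbx2-/- cells, against 55.8% of all near-silent genes. Their median log2 read ratio was 0.71. The part of such cells in the reads of neural channel genes was not tested.

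Some markers of other cells also differed between the genotypes. Over all genes, 3.48% were called higher and 4.3% lower in the authors' deposited table. Of 15 macrophage genes 11 were called higher, with summed values of 2030 in Cbx2-/- cells and 696 in wild-type cells in the authors' deposited table. Of 10 endothelial genes with a row 2 were called higher and 1 lower, with summed values of 1126 in Cbx2-/- cells and 803 in wild-type cells in the authors' deposited table. The endothelial adhesion genes Cdh5 and Esam rose, with 324 and 290 in Cbx2-/- cells and 61.6 and 35.6 in wild-type cells in the authors' deposited table. The higher sum comes from Cdh5 and Esam alone. Flt1 was the gene called lower, with 369 in Cbx2-/- cells and 540 in wild-type cells. The median log2 fold change of the endothelial list was -0.12. Of the macrophage genes with recovered reads none was at 0 in any library. The endothelial marker Pecam1 had 1 and 3 reads in the Cbx2-/- libraries and 2 and 2 in the wild-type libraries. Their part in the rises of Kcnn4 and Kcnj8, which such cells and pericytes can express, was not tested. Of 8 skeletal muscle genes with a row 2 were called lower, with summed values of 1663 in Cbx2-/- cells and 3616 in wild-type cells in the authors' deposited table. The 2 were Acta1 and Des, which hold most of both sums. The other 6 were near silence, and none of them was called. Of 8 smooth muscle genes 1 was called higher and 3 lower. Of 9 epithelial genes with a row 2 were called lower. The part of muscle cells in the falls of Trpc6 and Cacna1g was not tested. All 15 fibroblast genes had a row, and 11 were called lower and 1 higher, with summed values of 713585 in Cbx2-/- cells and 823071 in wild-type cells in the authors' deposited table.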

How the data were processed

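RNA of Cbx2-/- and wild-type mouse embryonic fibroblasts was sequenced, with 2 libraries for each. The submitters' processing notes name mm10 with DESeq2, RSEM, Bowtie2 and HISAT2. Their versions and roles are not stated. The authors deposited 1 table with a normalised read signal per genotype, a log2 fold change (knockout over wild type), and a p-value and adjusted p-value per gene from their DESeq2 comparison. The adjusted p-values match, to within 1.33e-06, those recomputed by Benjamini-Hochberg over the 17441 genes. Few-read fold changes are shrunken toward 0, so a small one says little. The implied standard error is the log2 fold change divided by the normal quantile of the deposited p.

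Counts per library were considered possible in the plan, but only genotype values were found, and the authors' test was used. In the mean of the 2 values each read of a library adds a fixed amount. Exactly 1 set of reads matched, within a tolerance of 6e-09 (2.9e-08 for a value above 100), for all 6362 genes with a mean under 60, and for some genes up to 100. Shifted values matched in 0% to 6.0% of cases by level. Which library carries which replicate number is not known. Genes with 10 or more reads and a mean under 60 (3526) were fitted with limma 3.58.1 (R 4.3.3, trend) on log2 of scaled reads plus 0.5. On simulated data for this comparison it found 142 of 200 genes changed 4-fold, among 3526, and called 1 unchanged gene.

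Genes named are those called, those with an unadjusted p under 0.05, that with the highest mean value in each family, the 5 largest rises and falls in reads near silence, and called genes of other lists. Others were named after their values were seen. A few further genes under this rule are not reported here. The ion channel genes and all lists were chosen with earlier results of these data known. Alternatives covered the adjustment, a fold requirement, added spread, the limit of near silence, the pseudocount, the test and each library left out. Promoter sequences are those of RefSeq, GRCm38.p6.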

Additional observations from a re-analysis of the deposited data

How the results depend on the processing

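Ion channel genes called higher numbered 5 in the main result, 3 with a 2-fold change required and 3 with a 10% coefficient of variation added to the spread. Genes called lower numbered 5, against 2 with the 2-fold requirement and 1 with the added spread. Near silence, a limit of 60 (chosen after seeing the data) in place of 50 gave 1 called higher and 2 lower, since it takes in Kcnc2 and Trpc6. limma on the recovered reads gave 3 higher and 2 lower in place of 0 and 1. Leaving out each library in turn, limma gave 0 to 1 higher and 0 lower in each case. The median log2 read ratio of 0.0009 then ranged from -0.0863 to 0.1334. Over all 3526 genes limma called 352 with all libraries, 91 without either knockout library and 0 without either wild-type library, where the calls of Kcnc2, Trpc6 and Scn2b were lost with all others.

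Of 38 named genes, 32 kept their side of the threshold with the added spread and 6 did not (Ano6, Cacna1g, Kcnab1, Kcnf1, Kcnj15 and Scn2b). Adjusting over genes with a mean of 10 or more moved none of the 28 it covered. No named gene changed direction in the limma runs, which covered those with 10 or more reads and a mean under 60. The added spread and the readjustment keep the deposited fold change, so they could not change a direction. Most genes above a mean of 60 have no reads per library here, so their replicate spread is known only through the deposited p. Below a mean of 5 no gene of the table was called. No paired analysis was possible because the table holds 1 value per genotype and the recovered libraries carry no replicate number. Other normalisations were not run for the same reason.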
